A study of Mus musculus with 10 samples.

Results

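Sebum, the oily secretion that coats hair and skin, is made by sebaceous glands that open into the hair follicle, and 10 genes of its lipid chemistry were followed in mouse cheek skin. They were chosen by symbol: Scd1, Scd3, Elovl3, Fa2h, Far2, Awat1, Awat2, Dgat2l6, Soat1 and Mc5r. Their gene identifiers in the table are, in that order, 20249, 30049, 12686, 338521, 330450, 245533, 245532, 668257, 20652 and 17203. All 10 were found among the 18994 genes of the table, and all 10 were among the 15250 genes that passed the filter on low counts and were tested. The study compared 5 C57BL/6 mice injected intradermally in the right cheek with MMP9 and 5 mice injected with the vehicle alone. MMP9 is matrix metalloproteinase 9, a secreted gelatinase, given as 1 µg in 5 µL. The mice were 6 to 8 weeks old, with no transgene or deletion named in the labels, their cheeks had been shaved 3 days before, and the tissue was taken 4 hours after injection. Each library is 1 numbered mouse of its group. Neither the sex of the mice nor what the vehicle contained is stated in the labels. The labels number the mice within each group and state no link between equal numbers.

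Sebocytes fill with lipid droplets as they mature and then burst, which releases the sebum. Fatty acids are built, desaturated, elongated and hydroxylated. Part is reduced to fatty alcohol, and acyltransferases join acids with alcohols or sterols into wax esters, triglycerides and sterol esters. Mice lacking Scd1 have underdeveloped sebaceous glands, and mice lacking Mc5r secrete less lipid onto the coat.

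The libraries held 17121541 to 19443099 estimated counts each, and the member with the fewest counts, Mc5r, had at least 435 in every library. Values are given on either of these scales: TPM, which is per transcript length and serves to compare genes with each other, and CPM scaled by TMM factors, which serves to compare libraries and is the scale of the test. The tissue held sebaceous transcripts beyond the members. Krt79, a keratin of the follicle duct and gland opening, had a median of 742 TPM, and the microsomal glutathione transferase gene Mgst1, a sebocyte marker, ranged from 689 to 1061 TPM. It also held epidermis, fat, muscle and hair: the summed TPM of 15 skeletal muscle markers ran from 21902 to 40942.7. In bulk tissue, fewer sebocytes and less RNA per sebocyte cannot be told apart.

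Stearoyl-CoA desaturase 1 was the most abundant member and the melanocortin receptor the least. The median over the 10 libraries was 1406 TPM for Scd1, 582 for Fa2h, 566 for Far2, 278 for Awat1, 239.7 for Scd3, 165 for Awat2, 149 for Elovl3, 98.5 for Dgat2l6, 65.5 for Soat1 and 15.1 for Mc5r. Together they made up 0.244% to 0.671% of all TPM. Scd1 stood above Fa2h in 10 of 10 libraries, and so did Far2 above Awat1, Elovl3 above Dgat2l6, Dgat2l6 above Soat1, and Soat1 above Mc5r. The other neighbours in this order did not differ beyond their spread: Fa2h exceeded Far2 in 4 of 10 libraries, Awat1 exceeded Scd3 in 5, Scd3 exceeded Awat2 in 8 and Awat2 exceeded Elovl3 in 5. By mean TPM in vehicle skin Scd1 ranked above 99.5% of the listed genes, Dgat2l6 above 92.4% and Mc5r above 61.9%.

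**Figure D1:**
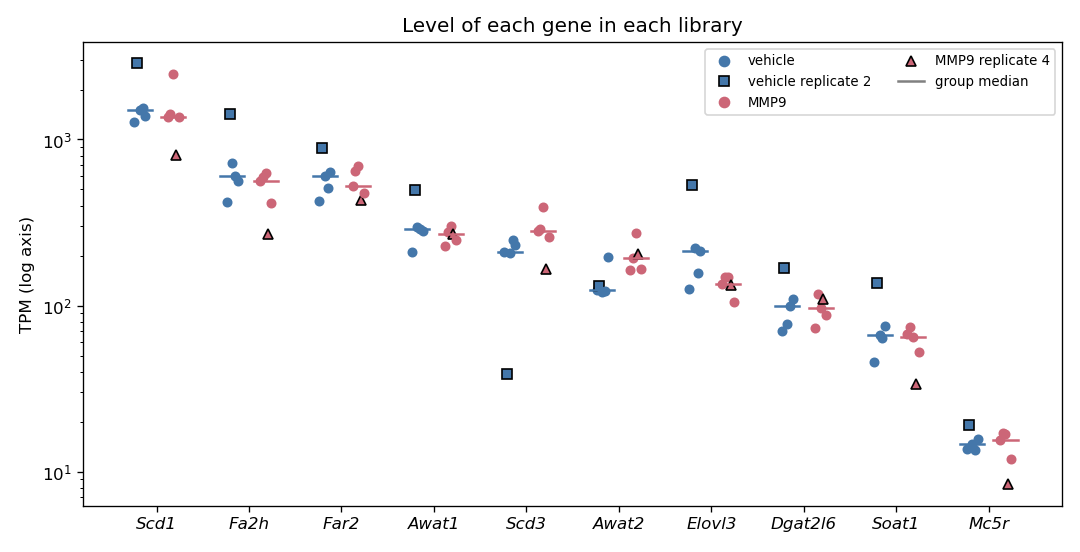
TPM of each of the 10 genes (log axis) in every library, ordered by the median over all libraries; circles are mice, bars are group medians, squares mark vehicle replicate 2 and triangles MMP9 replicate 4. The vehicle replicate 2 square is the highest point for 8 of the 10 genes and, at 38.6 TPM, the lowest for Scd3.

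A single vehicle library stood apart in the members. In vehicle replicate 2 the TPM of Elovl3 was 3.55 times the median of the other 9 libraries, that of Fa2h 2.52 times, Soat1 2.12 times, Scd1 2.08 times, Awat1 1.81 times, Dgat2l6 1.73 times, Far2 1.68 times and Mc5r 1.29 times. Awat2 did not share this, at 0.79 times. Scd3 went the other way, and the median of the other libraries was 6.46 times its value there. Genes of activated keratinocytes, chosen after their values were seen, were also highest in that library: Krt16 stood at 519 TPM against 30.7 to 256 in the others, and Krt6b at 350.1 against 0.96 to 129. Its score for hair shaft and inner root sheath genes was -6.29 on the log2 scale, close to the -5.70 of MMP9 replicate 1, against -0.90 to 2.98 in the other 8. MMP9 replicate 1 did not share the high member values. MMP9 replicate 4, whose 84 ribosomal protein genes took 26.0% of TPM against 16.8% to 18.4% elsewhere, had the lowest TPM of Scd1, Fa2h, Soat1 and Mc5r. On the CPM scale it was the lowest for Scd1 and Fa2h, not for Soat1 or Mc5r, and the highest of all libraries for Awat2, at 295 CPM. The part of these tissue and library differences in the members' values was not tested.

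**Figure D2:**
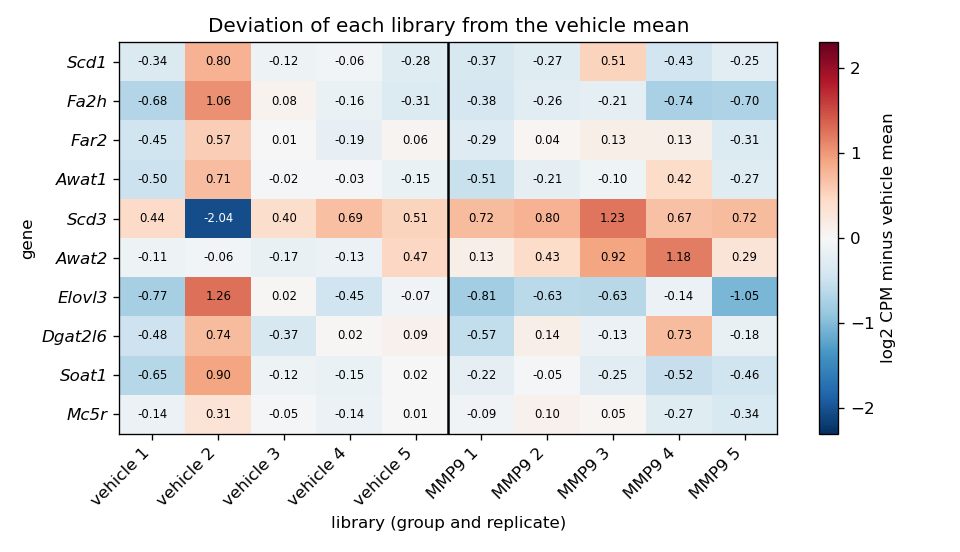
Log2 CPM of each gene (rows) in each library (columns) minus the gene's vehicle mean, with the value printed in each cell; red is higher and blue lower. The column of vehicle replicate 2 is positive for 8 genes and reaches -2.04 for Scd3. All 5 MMP9 columns are positive for Awat2 and for Scd3. For Scd3 the other vehicle columns are positive too, at 0.40 to 0.69 against 0.67 to 1.23 in MMP9, because vehicle replicate 2 lowers the vehicle mean.

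The comparison of MMP9 with vehicle asks which of these genes differ 4 hours after the injection. No member passed edgeR's quasi-likelihood test at a Benjamini-Hochberg adjusted p of 0.05 over all genes (0 of 10, against a background of 0%, 0 of 15250 genes). DESeq2 called 1 gene, which was no member. At an unadjusted p under 0.05 edgeR gave 2 members, where the background was 3.19% of the tested genes (487 of 15250). That background is below the 762.5 genes expected if no gene differed, and the members were chosen with earlier results known. DESeq2, run on 18957 genes, gave 620 genes and 3 members, Fa2h (unadjusted p 0.0399) beside the same 2. By edgeR, Awat2 was the member on the higher side in MMP9, against 2.07% of genes, and Elovl3 the member on the lower side, against 1.12%. The groups overlapped for all 10 members, while they did not overlap for 0.564% of tested genes. The log2 fold change was below 0 for 8 of 10 members, against 46.3% of tested genes, and its median over the members was -0.13, against 0.01 over all tested genes. Without vehicle replicate 2 it was below 0 for 4 of 10, with a median of 0.07, against 0.02 over all tested genes. The share of all genes below 0 was not computed in that setting.

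**Figure D3:**
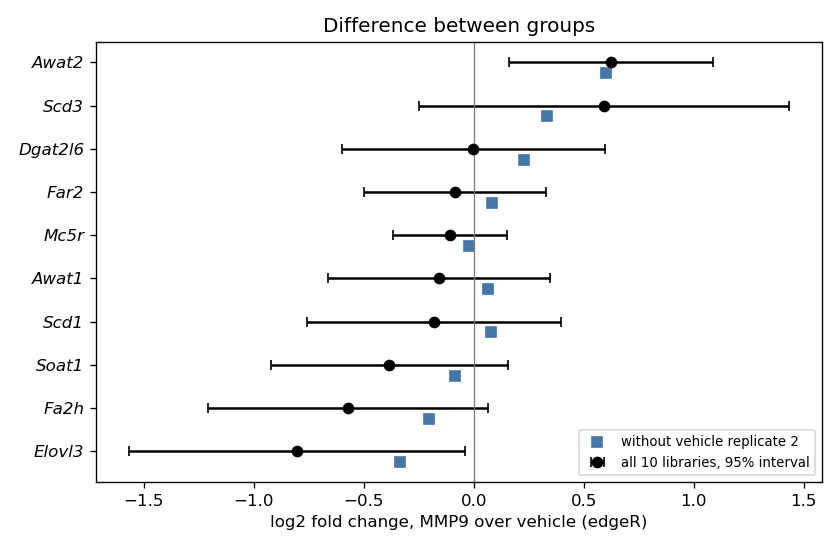
Log2 fold change of MMP9 over vehicle for each gene from edgeR (circles, with 95% intervals, 5 mice per group) and the same estimate without vehicle replicate 2 (squares). The intervals of Awat2 (0.16 to 1.09) and Elovl3 (-1.57 to -0.04) leave out 0 before adjustment, and every square lies nearer to 0 than its circle except that of Dgat2l6, which moves from -0.0018 to 0.23.

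The desaturases come early in the pathway. Scd1 places the double bond of palmitoleate and oleate and is also active in fat and liver, whereas Scd3 is a desaturase isoform of skin. Scd1 stood at 3755, 8265, 4380, 4539 and 3898 CPM in vehicle replicates 1 to 5 and at 3676, 3935, 6759, 3516 and 4003 CPM in MMP9 replicates 1 to 5. Vehicle replicate 2 and MMP9 replicate 3 were high, and the other libraries of the groups overlapped between 3755 and 4003 CPM. The log2 fold change was -0.18 (SE 0.26, edgeR adjusted p 0.981), and it was 0.08 without vehicle replicate 2. Scd3 had 444, 79.4, 432, 525 and 464 CPM in vehicle and 538, 568, 768, 519.6 and 538 CPM in MMP9. Of the 5 MMP9 libraries 4 were above all vehicle libraries in CPM, and MMP9 replicate 4 lay just under vehicle replicate 4. On the TPM scale MMP9 replicate 4 had 167 TPM of Scd3, below the 208 to 249 TPM of vehicle replicates 1, 3, 4 and 5. The log2 fold change was 0.59 (SE 0.38, edgeR adjusted p 0.981, 95% interval -0.25 to 1.43). Without vehicle replicate 2 it was 0.33, with an unadjusted edgeR p of 0.0416 and an adjusted p above the threshold in all 22 alternatives.

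Scd3 as a share of Scd1, both in TPM, separated vehicle replicate 2 from all others. The share was 1.34% there, 13.8% to 16.7% in the other 4 vehicle libraries and 15.9% to 20.7% in MMP9. Of the 3440 windows of 50 bases (the read length) in the longest coding Scd3 transcript of GENCODE, 167 (4.86%) also occur in that of Scd1, and 6.69% occur in transcripts of any other gene. Scd1 shares 4.66% of its windows with transcripts of other genes, Scd2, Scd3 and Scd4 among them, so reads from those windows could be assigned to either gene. Far2 shares 1.14%, part of it with its antisense gene Far2os2, and Soat1 shares 0.853%, with many genes. Awat1, Awat2, Dgat2l6, Elovl3, Fa2h and Mc5r share 0% with another gene on either strand. How shared reads were counted is not stated in the labels.

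**Figure D4:**
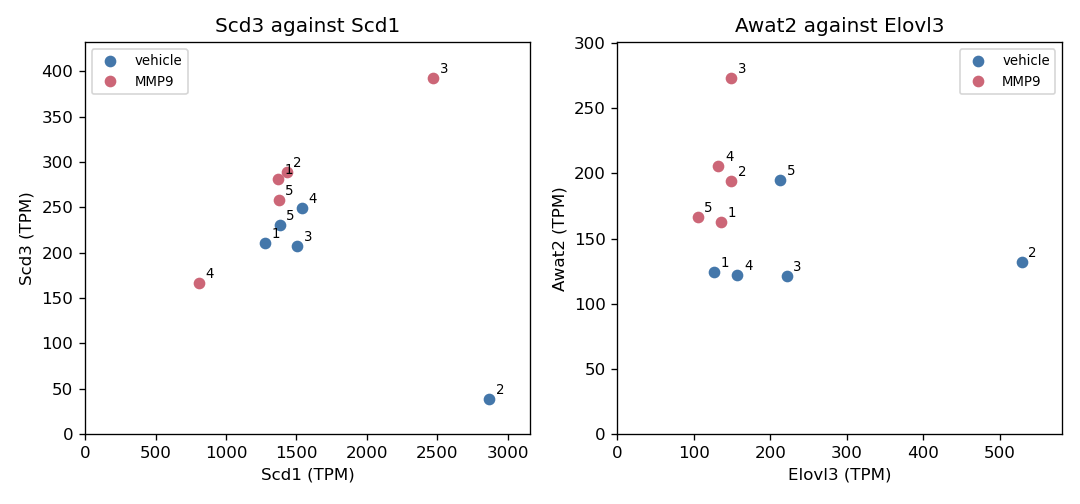
Left, TPM of Scd3 against Scd1; right, TPM of Awat2 against Elovl3; each point is 1 library, numbered by replicate, blue for vehicle and red for MMP9. Vehicle replicate 2 is alone at the lower right of the left panel and at the far right of the other (2870 TPM of Scd1 with 38.6 of Scd3, and 529 TPM of Elovl3 with 132 of Awat2).

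The 250 bases before the RefSeq start of Scd3 are shown because it was the member that went against the others in vehicle replicate 2, and those of Awat1, Dgat2l6 and Awat2 because the first pair varied together and Awat2 did not. The windows are of build GRCm38.p6, an earlier build than the deposited table's: Scd3 chr19:44203038-44203287 on the plus strand, Awat1 chrX:100571997-100572246 and Dgat2l6 chrX:100524588-100524837, both on the plus strand, and Awat2 chrX:100412588-100412837 on the minus strand. In the RefSeq gene table Dgat2l6 and Awat1 are adjacent protein-coding genes, and Awat2 lies on the same chromosome beyond other genes. Awat2 has another listed window farther upstream, chrX:100442718-100442967 on the minus strand, which is not shown. Capitals mark a match, on either strand, to any of the 7 motifs named after the sequences.
Scd3: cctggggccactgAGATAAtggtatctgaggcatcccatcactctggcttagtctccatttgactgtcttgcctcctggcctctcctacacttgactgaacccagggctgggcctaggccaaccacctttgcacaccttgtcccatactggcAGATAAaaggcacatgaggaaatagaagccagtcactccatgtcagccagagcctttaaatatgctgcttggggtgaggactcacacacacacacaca
Awat1: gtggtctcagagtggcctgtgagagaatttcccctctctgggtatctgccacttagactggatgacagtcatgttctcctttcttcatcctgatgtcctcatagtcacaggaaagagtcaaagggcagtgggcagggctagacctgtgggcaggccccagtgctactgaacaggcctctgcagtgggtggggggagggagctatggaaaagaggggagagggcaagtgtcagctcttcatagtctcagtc
Dgat2l6: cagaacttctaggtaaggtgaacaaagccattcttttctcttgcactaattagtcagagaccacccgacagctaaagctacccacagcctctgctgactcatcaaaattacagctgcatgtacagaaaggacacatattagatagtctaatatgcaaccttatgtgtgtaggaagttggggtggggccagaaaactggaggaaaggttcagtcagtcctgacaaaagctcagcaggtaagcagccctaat
Awat2: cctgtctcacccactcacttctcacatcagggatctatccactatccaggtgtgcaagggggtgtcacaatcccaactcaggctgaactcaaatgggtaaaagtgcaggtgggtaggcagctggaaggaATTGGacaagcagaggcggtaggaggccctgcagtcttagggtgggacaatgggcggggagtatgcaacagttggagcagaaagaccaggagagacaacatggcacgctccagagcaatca

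The motifs searched were the E-box CACGTG, the CCAAT box, the TATA box TATAAA, the sterol regulatory sequence TCACCCCAC, the nuclear receptor sequence AGGTCA, the DR1 core (AGGTCA repeated after any 1 base, which overlaps it) and the GATA sequence AGATAA. The Scd3 window held AGATAA 2 times, a sequence found in 9.99% of all 32851 windows of that length in the table. The Awat2 window held CCAAT 1 time, in its reverse complement, against 33.9% of all windows. The Awat1 and Dgat2l6 windows held none of the 7, where TATAAA occurs in 12.4% and CACGTG in 6.02% of windows. RefSeq windows were matched for 6 of the 10 members. Elovl3, Scd1 and Fa2h had none in the table. Windows on chromosome 18, where Mc5r lies, were left out of the matching, so none is given for Mc5r.

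Elovl3 and Fa2h lengthen and modify the acyl chain. Elovl3 elongates saturated and monounsaturated acids to very long chains and is expressed in hair follicle cells as well as sebaceous glands. It stood at 142, 582.5, 247, 178 and 230.5 CPM in vehicle and at 139, 157, 156, 221 and 117 CPM in MMP9. Vehicle replicate 2 was more than 2 times any other library, and 2 of 5 MMP9 libraries lay below all vehicle libraries. The means were 276 ± 176 and 158 ± 38.6 CPM (SD, n = 5), a log2 fold change of -0.80 (SE 0.35, edgeR adjusted p 0.981). It was -0.34 without vehicle replicate 2, with an unadjusted edgeR p of 0.136.

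Fa2h, fatty acid 2-hydroxylase, makes hydroxylated acids for sebum, epidermal sphingolipids and myelin. It had 629.9, 2098, 1066, 904 and 812 CPM in vehicle and 774, 838, 872, 603 and 618.5 CPM in MMP9. The MMP9 libraries all lay below the vehicle median, 2 of them below every vehicle library. The log2 fold change was -0.57 (SE 0.29, edgeR adjusted p 0.981), and -0.20 without vehicle replicate 2. Genes of myelin, another place where Fa2h acts, had a negative log2 fold change in 9 of 10 tested markers, with a median of -0.15. Epidermal markers had it in 7 of 14, with a median of 0.0058, and all tested genes in 46.3%. Over the 10 libraries Fa2h and the myelin marker score had r = 0.54 (permutation p 0.108, adjusted 0.501) and rho 0.58 (permutation p 0.0887, adjusted 0.801). With the epidermal score r was 0.41 (permutation p 0.248, adjusted 0.649). Over the members, r with the myelin score ran from -0.53 for Awat2 to 0.60 for Mc5r, so Fa2h was not the highest. The part of either tissue in the difference of Fa2h between the groups was not tested.

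Elovl3 and the hair genes were correlated within the libraries that held more hair shaft RNA, since the hair score falls into separate clusters, and no correlation is given over all 10. The relation found there did not extend to vehicle replicate 2, which had the highest Elovl3 and the lowest hair score. Over the 8 libraries left after vehicle replicate 2 and MMP9 replicate 1, which form a separate cluster with little hair shaft RNA, Elovl3 correlated with the score of 20 hair genes at Pearson r = 0.88 (permutation p 0.00415). The adjusted p was 0.0415 over the 10 members and 0.123 over the 90 relations of members with scores, so the call depends on the family. Spearman's rho was 0.88 (permutation p 0.00684, adjusted over the 10 members 0.0684), and r was 0.70 over the 6 libraries nearest the median score. For Fa2h r was 0.80 (permutation p 0.0148, adjusted over the 10 members 0.0741), rho 0.69 (permutation p 0.0702, adjusted 0.279) and r 0.54 over those 6. The other members had r between -0.29 and 0.61, none with an adjusted p under the threshold. Of the 8 libraries, those of vehicle lay on average higher on both measures, and neither group alone has enough libraries for a correlation.

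**Figure D5:**
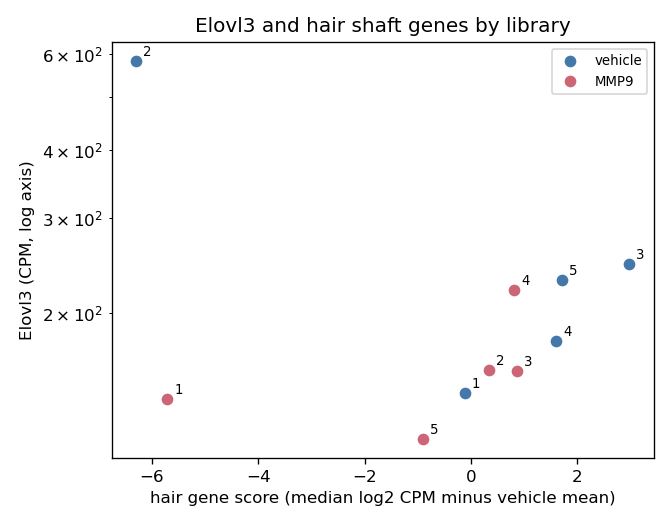
Elovl3 in CPM (log axis) against the hair gene score, the median over 20 genes of log2 CPM minus the vehicle mean; each point is 1 library, numbered by replicate. The 8 libraries at the right lie between 117 and 247 CPM, higher toward higher scores, while vehicle replicate 2 and MMP9 replicate 1, both near -6 on the score, sit at 582.5 and 139 CPM.

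Far2, Awat1, Awat2 and Dgat2l6 belong to the wax ester branch. Far2 reduces fatty acyl-CoA to the fatty alcohol. Awat1 and Awat2 are acyl-CoA wax alcohol acyltransferases that join the alcohol to another acid, and Dgat2l6 is a relative of theirs in the DGAT2 family. Awat2 had 121, 125, 116, 119 and 181 CPM in vehicle and 143, 175, 246, 295 and 159.8 CPM in MMP9. All 5 MMP9 libraries lay above the 4 lower vehicle libraries, and 2 of them lay above vehicle replicate 5 as well. The means were 132 ± 27.4 and 204 ± 64.2 CPM (SD, n = 5), a log2 fold change of 0.62 (SE 0.21, 95% interval 0.16 to 1.09, unadjusted p 0.0131, edgeR adjusted p 0.981). Without vehicle replicate 2 it was 0.60, and without MMP9 replicate 4, where the 295 CPM correspond to 206 TPM, it was 0.45.

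The ratio of Awat2 to Elovl3, chosen after the values were seen, ran from 0.249 to 0.985 in TPM over the vehicle libraries and from 1.20 to 1.83 over the MMP9 libraries. It was the ratio without overlap among the 45 between members (2.22%), and it joins the genes with the highest and the lowest log2 fold change, so no test was made.

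Awat1 did not show the same order of libraries. It had 174, 403, 243, 241 and 223 CPM in vehicle and 173, 213, 231, 330.0 and 204 CPM in MMP9, with a log2 fold change of -0.16 (SE 0.23, edgeR adjusted p 0.981). Vehicle replicate 2 was the highest and 4 of 5 MMP9 libraries lay within the vehicle range. Dgat2l6 had 67.6, 157, 73.4, 95.9 and 101 CPM in vehicle and 63.5, 104, 86.6, 157 and 83.7 CPM in MMP9, with 1 high library in each group, vehicle replicate 2 and MMP9 replicate 4. On the TPM scale the latter was not high, at 110.2 against 117 in MMP9 replicate 2. Dgat2l6 had a log2 fold change of -0.0018 (95% interval -0.60 to 0.59) and 2.39 times as much TPM in its highest as in its lowest library. Far2 had 882, 1788, 1220, 1062 and 1262 CPM in vehicle and 989.9, 1242, 1325, 1321 and 973 CPM in MMP9, with no MMP9 library outside the vehicle range. By the same measure Far2 stood at 2.08 times, with a log2 fold change of -0.09 (95% interval -0.50 to 0.33). Without vehicle replicate 2 the log2 fold changes of Awat1, Dgat2l6 and Far2 were 0.06, 0.23 and 0.08.

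Soat1, the sterol acyltransferase that forms cholesterol esters in sebocytes, macrophages and steroid-making cells, had 132, 386, 190.3, 186 and 209 CPM in vehicle and 177, 200.2, 173, 144 and 150.5 CPM in MMP9. All MMP9 libraries lay within the vehicle range, and without vehicle replicate 2 the vehicle values stopped at 209. The log2 fold change was -0.38 (SE 0.24, edgeR adjusted p 0.981), and -0.08 without vehicle replicate 2. Over the 10 libraries Soat1 and the macrophage marker score had r = 0.007 (permutation p 0.984) and rho 0.18 (permutation p 0.634), and r was -0.06 without vehicle replicates 3 and 5. Mc5r, the melanocortin receptor that drives sebum secretion, had 33.1, 45.2, 35.2, 33.0 and 36.6 CPM in vehicle and 34.2, 38.9, 37.7, 30.1 and 28.6 CPM in MMP9. MMP9 replicates 4 and 5 lay below all vehicle libraries. Mc5r had the smallest standard error of the members, with a log2 fold change of -0.11 (SE 0.12) and a 95% interval of -0.37 to 0.15. The ligand precursor gene Pomc had 46 counts over all libraries and was not tested. Mc2r, the corticotropin receptor of fat and adrenal, had a log2 fold change of 0.34 (SE 0.17) and its accessory gene Mrap of 0.15 (SE 0.40).

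Many members varied together between mice, with vehicle replicate 2 among the libraries farthest out. Of the 45 pairs, 32 had a positive Pearson r over the 10 libraries, the median was 0.58, and 11 passed at an adjusted permutation p of 0.05. Fa2h with Soat1 had r = 0.95 (permutation p 0.00069, adjusted 0.0174) and rho 0.73 (permutation p 0.0206, adjusted 0.156), and r was 0.75 without vehicle replicate 2 and MMP9 replicate 4. Awat1 with its neighbour Dgat2l6 had r = 0.90 (permutation p 0.00127, adjusted 0.0174) and rho 0.71 (permutation p 0.0266, adjusted 0.171), and r was 0.64 without the same 2 libraries. Awat1 with Far2 had r = 0.87 (permutation p 0.00094, adjusted 0.0174), rho 0.75 (permutation p 0.0179, adjusted 0.156) and 0.73 without them. By Spearman's rho 0 pairs passed, and 0 passed when the 2 libraries farthest on the first gene were left out, which also lowers the number of libraries from 10 to 8. Awat2 had r between -0.40 and 0.42 with every other member. The r of Scd3 with the other 9 members ran from -0.87 with Elovl3 to 0.40 with Awat2, and the first became -0.20 without vehicle replicates 2 and 3.

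The other genes of the pathway showed no passes either. Of 11 further sebocyte markers, 15 genes of fatty acid synthesis, elongation and desaturation, and 11 tested genes of wax, triglyceride and sterol ester formation, 0 passed in edgeR and 0 had an unadjusted p under 0.05. Their median log2 fold changes were -0.0041, -0.0029 and 0.03. Elovl4, which makes the very long acids of the epidermal barrier, averaged 1217 ± 463 TPM (SD, n = 5) over the vehicle mice against 945 ± 179 TPM under MMP9, and its highest value, 1994 TPM, was again in vehicle replicate 2. Fads1, the delta-5 desaturase, had the smallest unadjusted edgeR p of the synthesis genes, 0.0764, with a log2 fold change of 0.17 (SE 0.09). Far1, the other fatty acyl-CoA reductase, had 37.3 TPM in vehicle replicate 2 and 14.3 to 23.5 TPM elsewhere. The glycerol acyltransferase gene Gpam had a log2 fold change of -0.21 (SE 0.12).

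Markers of other cell types in the tissue had 0 passes as well, of 10 adipocyte, 10 macrophage, 10 Schwann cell, 14 epidermal, 15 muscle and 20 hair genes. Their median log2 fold changes were 0.06, -0.11, -0.15, 0.0058, 0.02 and -1.20. All 20 hair genes had negative log2 fold changes, none with an unadjusted edgeR p under 0.05; the myelin gene Pmp22 had 0.0499. Adipocyte markers, of a cell type that also expresses Scd1, summed to 2332 to 6166 TPM in vehicle and 2648 to 5671 TPM in MMP9. The adipocyte score and Scd1 had r = -0.09 (permutation p 0.872) and rho -0.18 (permutation p 0.63). Without vehicle replicate 3 and MMP9 replicate 1, the farthest in that score, r was -0.73 (permutation p 0.0383, adjusted 0.287). This was not particular to Scd1: without them r with the adipocyte score ran from -0.86 for Mc5r to 0.71 for Scd3. Of 80 correlations between members and scores other than the hair score, 0 passed after adjustment over the 90 computed, by Pearson or by Spearman. The highest r was 0.91, between Scd1 and the synthesis genes (permutation p 0.00087, adjusted 0.0783), with rho 0.81 (permutation p 0.00716, adjusted 0.644), and r was 0.64 without vehicle replicate 2 and MMP9 replicate 3. The lowest was -0.76, between Scd3 and the sebocyte markers, and it became 0.24 without vehicle replicates 1 and 2. With the muscle score r ran from -0.72 for Mc5r (permutation p 0.0152, adjusted 0.285) to 0.33 for Scd3. Without vehicle replicate 5 and MMP9 replicate 1 it was -0.92 for Mc5r (permutation p 0.00095, adjusted 0.0855) and 0.54 for Scd3. Salivary gland markers were low, with Smr3a at 5 counts over all libraries and a highest value of 36.2 TPM for Amy1.

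The genes most like each member in pattern over the 10 libraries were found among 12508 genes with a mean of at least 5 CPM, by Pearson r of log2 CPM. An r picked as the highest of so many is a description only. For Fa2h, Cyp4f39, a hydroxylase gene of barrier lipids, was among them (r = 0.99). For Soat1 they were Fntb and Sec14l4 (0.99 and 0.98), for Far2 the lipase gene Pnpla5 and Hpdl (0.99 and 0.97), and for Elovl3 Cyp2b23 and Tlcd4 (0.98 and 0.97). Awat1 was matched by Hacd2, a dehydratase of fatty acid elongation, and Ube2m (both 0.97). Awat2 was matched by the peroxisomal thiolase gene Acaa1b and the lipid droplet hydrolase gene Ldah (both 0.95). Dgat2l6 had Gm3336 and Ddt (0.97 and 0.95), Mc5r had Coasy, of coenzyme A synthesis, and the epidermal lipoxygenase gene Aloxe3 (0.97 and 0.95), and Scd1 had Mid1ip1, an activator of acetyl-CoA carboxylase, and Bpnt1 (0.97 and 0.94). Scd3 was matched by Hamp2, a hepcidin gene, and Prr5l (0.97 and 0.92). Hamp2 had 0.71 CPM in vehicle replicate 2, where Scd3 was lowest, and 15.9 to 90.7 CPM in the other libraries. Cyp2b23 and Tlcd4 were highest in that library, at 31.1 CPM against 3.01 to 9.02 and at 197 CPM against 44.3 to 88.7. Acaa1b did not stand out there, at 31.1 CPM against 29.7 to 70.2. Spearman's rho of the matches ran from 0.62 for Scd3 with Prr5l to 0.98, the latter for Elovl3 with Cyp2b23 among others.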

How the data were processed

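The mRNA of cheek skin from 10 mice was sequenced as single-end reads of 50 bases on a DNBSeq instrument after oligo(dT) selection, per the labels' protocols. The submitters' processing notes name the read aligner HISAT and the build GRCm39. Quantification program, annotation, tool versions and strand use: not stated there or in the labels. Deposited by the authors was an estimated count per gene and library (60.8% of values not whole), with TPM scaled by length and to a fixed sum per library, and FPKM, per the file headers. The deposited FPKM values and the authors' group means were not used. Groups came from the labels.

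Estimated counts were rounded and fitted over all genes with edgeR 4.0.16 in R 4.3.3 (TMM factors, filterByExpr, quasi-likelihood F test, Benjamini-Hochberg adjustment, threshold 0.05). The promoter windows are RefSeq's, the transcripts GENCODE's. The tested genes held 99.9% of counts. Standard errors were derived from the F statistic. List scores are medians of log2 CPM (prior count 2) minus the vehicle mean. Correlations had 100000 permutations, two-sided. The test was run on simulated counts of 15250 genes, 50 changed at each size: 68% of the genes set to 2-fold were called and 12% of those set to 1.5-fold, with 5 of 139 calls false.

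The members and the 11 gene lists (128 of 134 entries in the table) were chosen with earlier results of these data known. All members are named, with up to 4 genes of smallest p eligible per list, genes needed to check a label, and the 2 genes most alike in pattern to each member. For Fa2h 1 of these is not reported here. The eligible genes printed were picked with their values known. Alternatives were RLE and upper-quartile factors, other filters, DESeq2 1.42.0, limma 3.58.1 (voom, and log2(TPM + 1) or log2(TPM + 0.1)), the mouse number as a block, marker genes left out, and libraries left out.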

Additional observations from a re-analysis of the deposited data

Results flagged for a closer look

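Of 20 groups of 5 libraries (10 genes in 2 treatment groups), 6 had a library whose gap to its nearest neighbour exceeded 0.71 of the group's range in CPM. With independent normal values about 1 in 20 such groups would have one. The 10 genes were measured in the same 10 libraries, so the flags are not independent and their count is a description only. Vehicle replicate 2 accounted for 3 of them: Elovl3 at 582.5 CPM against 142 to 247 in the other vehicle libraries, Scd1 at 8265 CPM against 3755 to 4539, and Scd3 at 79.4 CPM against 432 to 525. MMP9 replicate 3 stood apart for Scd1 at 6759 CPM against 3516 to 4003 and for Scd3 at 768 CPM against 519.6 to 568. Vehicle replicate 5 stood apart for Awat2 at 181 CPM against 116 to 125.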

How the results depend on the processing

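Over 22 alternatives no member's adjusted p fell below 0.887, and Awat2, Scd3, Elovl3, Fa2h and Soat1 kept their sign in each. The count of genes passing was 0 in all alternatives except DESeq2, which called 1. The mouse number as a replicate block gave 0 calls and changed no member's call or sign; the unadjusted p of Elovl3 was 0.0732 under it. Same-numbered libraries had correlations of deviation from -0.242 to 0.455, and 3 of the 10 libraries correlated best with their own number. The highest value was that of number 3, whose libraries were each other's best match. So few libraries cannot decide whether equal numbers pair the mice, and the labels state no link. The median log2 fold change of the members lay between -0.23 and 0.072 when each library was left out, the last without vehicle replicate 2, and it was 0.14 without vehicle replicate 2 and MMP9 replicate 1 together. In that setting Awat1 had 0.15, Scd1 0.14, Far2 0.13 and Dgat2l6 0.35. Without vehicle replicate 2 and MMP9 replicate 4, a setting chosen after seeing the data, Scd1 had 0.14, Far2 0.023 and Mc5r 0.0077. Dgat2l6 had 0.022 with upper-quartile factors, 9.3e-05 with a mean of at least 1 CPM and 0.0044 with voom. Leaving out each library gave Awat1 -0.32 to 0.064, Scd1 -0.40 to 0.079, Far2 -0.19 to 0.081 and Dgat2l6 -0.23 to 0.23. On log2(TPM + 1), 17 member pairs and 4 correlations with scores passed. By rho, and without the 2 farthest libraries, 0 pairs passed. Each member had 435 or more counts in every library. Without vehicle replicate 2 the coefficient of variation among vehicle mice went from 37.7% to 9.06% for Scd1 and from 45.4% to 8.93% for Scd3 in CPM.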
